A study of Mus musculus with 8 samples.

Results

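The choroid plexus genes described here were 9 rows of the deposited count table, chosen by gene name, out of 54532 genes listed: Ttr, Folr1, Kl, Clic6, Kcnj13, Aqp1, Otx2, Prlr and Cldn2. They were picked with their counts in these mice in view, because they varied widely between mice and together, so their spread, their covariation and their levels by genotype are a description and carry no test. The tissue was cortex from 8 mice of 8 mo of age on a C57BL/6 background, with 1 library per mouse. Mice m677, m668, m665 and m659 were PS19, which express mutant human tau from a transgene under the mouse prion promoter, and mice m671, m661, m660 and m658 carried the same transgene with 1 mutant copy of Adrb1, the gene of the β1-adrenergic receptor (Adrb1-A187V;PS19). All 8 mice therefore carried the tau transgene. Mice without it, or with the receptor mutation alone, were not analysed here. The 9 genes lie on 9 different chromosomes (GRCm38): Ttr at chr18:20665250-20674324, Kl at chr5:150952607-150993817, Clic6 at chr16:92485736-92541243, Kcnj13 at chr1:87386363-87394729, Aqp1 at chr6:55336432-55348555, Folr1 at chr7:101858331-101870788, Otx2 at chr14:48657677-48673819, Prlr at chr15:10177238-10349180 and Cldn2 at chrX:139800828-139811386.

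The choroid plexus is a folded epithelium inside the brain ventricles that makes cerebrospinal fluid and controls what passes into it from the blood. It is not a part of the cortex. Its epithelial cells make transthyretin (Ttr) in very large amounts, take up folate through the folate receptor (Folr1) and move ions and water through channels and pore-forming junctions, and their identity depends on the transcription factor Otx2. Kl and Prlr are also made at lower levels by neurons, so a low level of either in cortex is not by itself a sign of choroid plexus. In bulk tissue, more choroid plexus cells and more RNA per cell cannot be told apart.

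Totals lay between 14653222 and 21223754 counts per mouse, and TMM factors between 0.990 and 1.01. Levels are given as CPM, the counts per 1000000 of the library total after scaling with these factors. The edgeR filter on low counts kept 17195 genes, including 8 of the 9 choroid plexus genes; Cldn2 did not pass. Cortical excitatory neuron markers summed to between 1525 and 1896 CPM in every mouse, lowest in m660 (1525) and m658 (1536). Of these 8 markers, 7 were lower in Adrb1-A187V;PS19. In 3 of them the unadjusted edgeR p-value was under 0.05, against 2.80% of all genes tested, and none passed after adjustment. Adrb1 was counted in every library. The Adrb1 count cannot show the mutation.

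Ttr, the carrier of thyroid hormone and of retinol-binding protein in cerebrospinal fluid, had 11.5 CPM in PS19 mouse m677, 28.5 in m665, 129.3 in m659 and 340.4 in m668. In the Adrb1-A187V;PS19 mice it had 15.9 CPM in m661, 17.5 in m660, 59.4 in m671 and 526.5 in m658. The highest mouse of each genotype, m668 and m658, thus stood far above the lowest of either, and the genotypes overlapped over most of their range. The level in m658 was 45.7 times that in m677 (exact 95% interval 39.6 to 53.1; this and the other intervals on a ratio of 2 libraries cover counting error alone). The standard deviation of log2 CPM over the 8 mice was 2.10 for Ttr, the largest of all 17195 genes tested, whose median was 0.15.

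**Figure D1:**
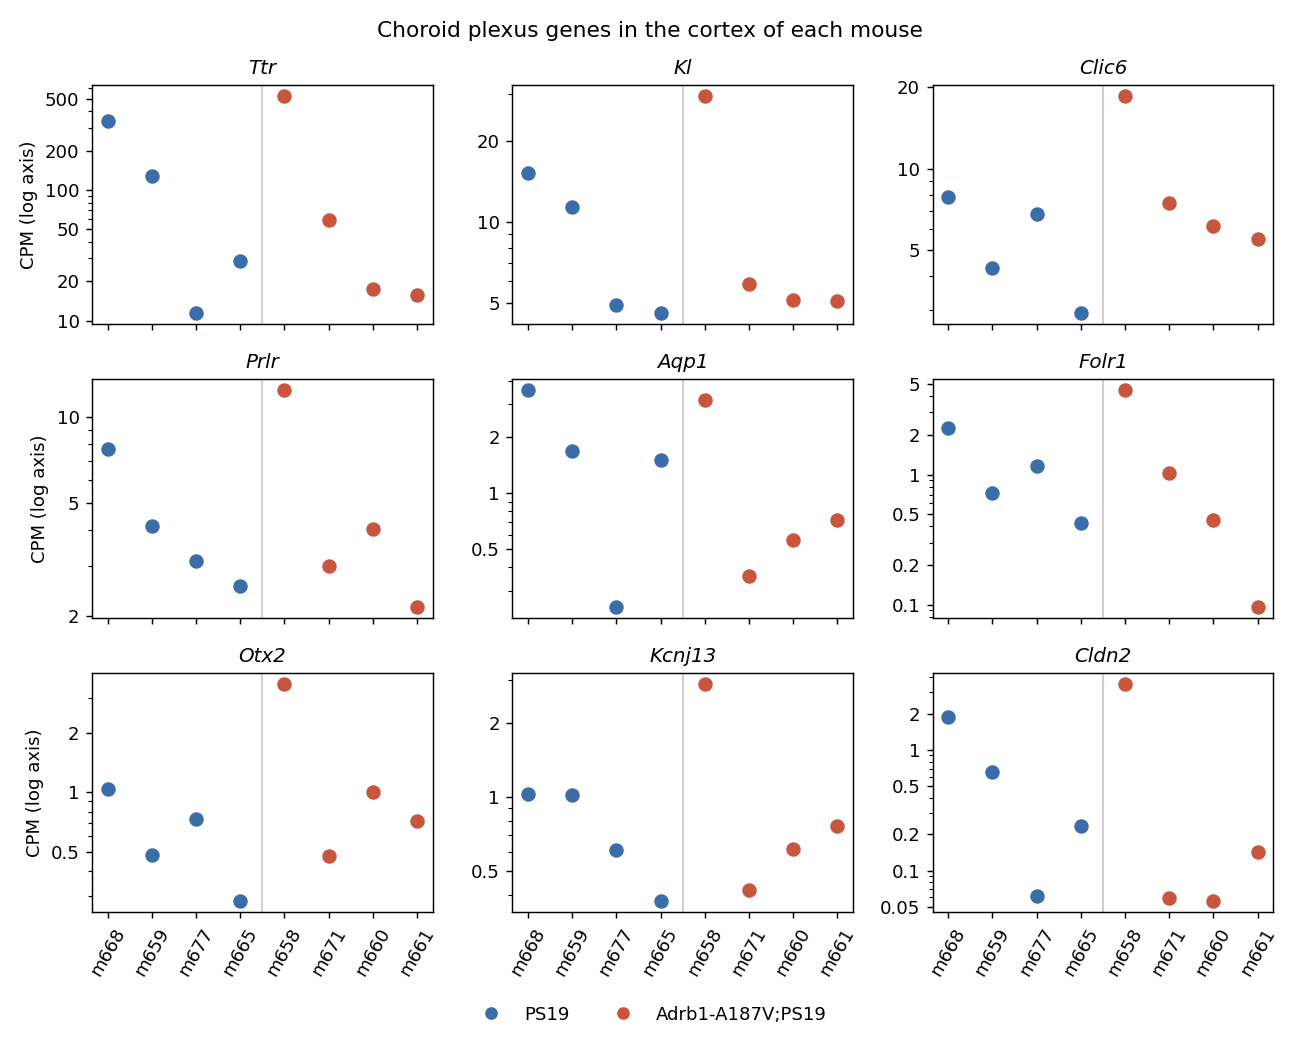
CPM (log axis) of the 9 choroid plexus genes in each mouse, PS19 in blue and Adrb1-A187V;PS19 in red, 1 point per mouse. Mouse m668 is the highest PS19 mouse and m658 the highest Adrb1-A187V;PS19 mouse in all 9 panels.

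Kl encodes klotho, a co-receptor for the hormone FGF23 that is also shed into the cerebrospinal fluid. It had 4.58, 4.90, 11.3 and 15.3 CPM in PS19 mice m665, m677, m659 and m668. In the Adrb1-A187V;PS19 mice m661, m660, m671 and m658 it had 5.08, 5.09, 5.88 and 29.5 CPM. Mice m665, m677, m661, m660 and m671 lay within a narrow band, and m659, m668 and m658 above it. Prlr, the prolactin receptor, was counted 54, 51, 69 and 112 times in m665, m677, m659 and m668, and 45, 50, 72 and 219 times in m661, m671, m660 and m658. The highest levels were 7.73 CPM in m668 and 12.4 CPM in m658. Both receptors were therefore highest in the same mouse as Ttr, with a smaller range.

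Folr1 binds folate and carries it across the epithelium. It was counted 9, 12, 19 and 33 times in PS19 mice m665, m659, m677 and m668, and 2, 8, 17 and 79 times in Adrb1-A187V;PS19 mice m661, m660, m671 and m658. The 79 counts of m658 equal 4.47 CPM, against 2.28 in m668. Folr1 overlaps Anapc15, a gene on the other strand with 1179 counts over the 8 mice. The strand setting of the counting is not given in the sources used here, so the lowest Folr1 counts are uncertain.

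Of the channels, Aqp1, the water channel of the epithelium's ventricular face, had 0.245, 1.51, 1.69 and 3.59 CPM in m677, m665, m659 and m668. It had 0.360, 0.560, 0.718 and 3.17 CPM in m671, m660, m661 and m658, and was the 1 gene of the 9 whose highest level was in m668 and not in m658. Clic6, a member of the chloride intracellular channel family, had 2.93, 4.28, 6.80 and 7.87 CPM in m665, m659, m677 and m668. It had 5.51, 6.16, 7.44 and 18.6 CPM in m661, m660, m671 and m658. Clic6 differed from Ttr below these 2 mice, since m659, next after m658 and m668 in Ttr, was next to the lowest in Clic6. Kcnj13, the inward rectifier Kir7.1, had 0.378, 0.612, 1.02 and 1.04 CPM in m665, m677, m659 and m668. It had 0.420, 0.616, 0.766 and 2.89 CPM in m671, m660, m661 and m658. The whole Kcnj13 gene lies within Gigyf2, which is on the other strand and had 10349 counts, so its low values are uncertain as well.

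Cldn2 forms the pores for small cations and water in the tight junctions of leaky epithelia. It was counted 1, 5, 11 and 27 times in m677, m665, m659 and m668 and 1, 1, 3 and 62 times in m671, m660, m661 and m658. The gene was nearly absent in 5 mice and plainly present in m668 and m658. Otx2 was counted 6, 8, 12 and 15 times in m665, m659, m677 and m668 and 8, 15, 18 and 62 times in m671, m661, m660 and m658. Its rise was in m658, at 3.51 CPM, while the 1.04 CPM of m668 were close to the 1.01 CPM of m660.

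Mice m658 and m668 were the 2 highest mice in CPM for all 9 genes, m658 being the first for 8 of them. PS19 mouse m659 came next to them for 6 of the 9. The lead of m668 over the next mouse was narrow for Kcnj13 (1.04 against 1.02 CPM in m659), Otx2 (1.04 against 1.01 in m660) and Clic6 (7.87 against 7.44 in m671). In raw counts m668, the smallest library, was behind these mice for the same genes. The ratio of m658 to m668, however, was not the same for every gene. It was 1.55 for Ttr (exact 95% interval 1.49 to 1.60), 1.60 for Prlr (1.27 to 2.03), 1.88 for Cldn2 (1.18 to 3.08), 1.94 for Kl (1.65 to 2.28) and 1.96 for Folr1 (1.29 to 3.04). It was higher for Clic6, at 2.37 (1.91 to 2.95), Kcnj13, at 2.79 (1.54 to 5.34), and Otx2, at 3.39 (1.91 to 6.41), and lower for Aqp1, at 0.883 (0.594 to 1.31). The intervals of Kl, Clic6 and Otx2 lay above that of Ttr, and that of Aqp1 below it. This is a description of 2 libraries and not a test, since the genes were chosen for their spread in these mice. The intervals cover counting error alone, and no level from other cells was taken out of the ratios.

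Per kilobase of gene model, Ttr was the most abundant of the 9 genes, with a mean over the 8 mice of 115.8 CPM per kb. The others were between 0.244 (Otx2) and 1.90 (Clic6) on the same scale, with Kl at 1.09 and Cldn2 at 0.248. On the log2 CPM scale, the standard deviation over the 8 mice was 1.37 for Folr1, 1.26 for Aqp1, 0.98 for Kl, 0.96 for Otx2, 0.83 for Prlr and for Kcnj13, and 0.76 for Clic6. Of all genes tested, 0.105% had a larger value than Folr1, 0.535% than Kl and 1.52% than Clic6. The 99th percentile over all genes was 0.83, and 5 of the 8 lay above it. Genes of low counts vary more by counting error, which bears on Folr1, Aqp1, Otx2 and Kcnj13. Without mouse m658, the median of the 8 genes' standard deviations went from 0.97 to 0.63.

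**Figure D2:**
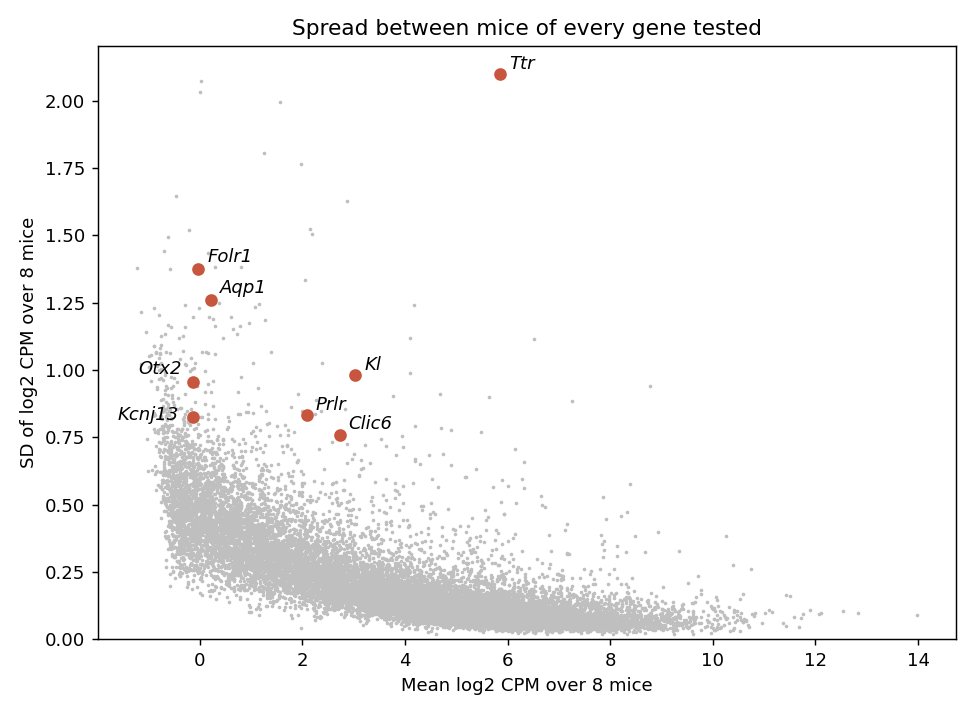
Standard deviation of log2 CPM over the 8 mice (y) against mean log2 CPM (x) for the 17195 genes tested (grey) and the 8 choroid plexus genes among them (red). Ttr, at 2.10, is the highest point of the plot, and the others range from 0.76 (Clic6) to 1.37 (Folr1), against a median of 0.15 over all genes.

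Levels of the 8 genes moved together from mouse to mouse. Over their 28 pairs and the 8 mice, which share the libraries, Pearson's r of the log2 CPM ran from 0.24 (Clic6 with Aqp1) to 0.94 (Ttr with Kl), with a median of 0.77. Spearman's rho had a median of 0.67. With the genotype means taken out the median r was 0.81. Without m658 and m668, the mice with the most Ttr, the median r over the other 6 mice was 0.25 and single pairs ran from -0.89 to 0.85. Most of the covariation thus rested on these 2 mice. The pairs closest to Ttr were Kl, Prlr (r = 0.86) and Aqp1 (r = 0.83), and Otx2 was the farthest, with an r of 0.54. Otx2 itself was closest to Clic6, with an r of 0.92.

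Sequences upstream of the annotated starts are shown because these genes moved together between mice. RefSeq promoter windows of GRCm38.p6, 250 bases before to 50 after a start, matched 6 of the 9 genes with 11 windows. The stretches below are the 250 bases before the start, 5′ to 3′ on the gene's strand, and capitals mark a match to a TATA box (TATAAA) or a forkhead motif (TGTTTAC) on either strand. The Kl stretch (chr5:150952357-150952606, plus strand), the Cldn2 stretch (chrX:139800558-139800807, plus strand) and the Kcnj13 stretch (chr1:87394730-87394979, minus strand, within an intron of Gigyf2) stand before single starts, and the Prlr stretch (chr15:10223656-10223905, plus strand) lies within an intron of Prlr before the second of 3 starts.
Kl: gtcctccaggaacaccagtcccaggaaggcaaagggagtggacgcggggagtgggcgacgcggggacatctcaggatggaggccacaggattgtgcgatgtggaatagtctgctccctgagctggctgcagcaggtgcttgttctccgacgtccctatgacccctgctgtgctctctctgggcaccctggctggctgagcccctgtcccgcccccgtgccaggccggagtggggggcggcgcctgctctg
Cldn2: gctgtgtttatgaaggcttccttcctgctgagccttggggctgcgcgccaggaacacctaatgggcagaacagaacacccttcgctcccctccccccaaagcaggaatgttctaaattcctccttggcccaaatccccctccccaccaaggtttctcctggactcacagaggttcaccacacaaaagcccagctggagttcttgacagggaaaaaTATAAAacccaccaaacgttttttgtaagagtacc
Kcnj13: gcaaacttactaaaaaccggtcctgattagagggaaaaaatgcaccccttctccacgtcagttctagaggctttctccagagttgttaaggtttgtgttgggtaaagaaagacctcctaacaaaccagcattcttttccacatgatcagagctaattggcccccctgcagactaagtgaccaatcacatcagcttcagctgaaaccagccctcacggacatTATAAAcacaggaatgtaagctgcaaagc
Prlr: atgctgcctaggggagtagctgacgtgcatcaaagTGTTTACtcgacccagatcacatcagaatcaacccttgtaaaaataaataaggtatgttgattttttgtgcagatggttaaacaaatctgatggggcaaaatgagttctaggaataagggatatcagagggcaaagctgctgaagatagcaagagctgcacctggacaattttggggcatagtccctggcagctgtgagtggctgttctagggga

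The TATA box letters stood at -35 from the start in Cldn2 and at -29 in Kcnj13, close to the usual place of such a box, and 3 of the 11 windows held them anywhere, against 13.6% of all 32851 RefSeq windows. The other was a window of Otx2. The forkhead letters were found in 1 of the 11 windows, that of Prlr, against 3.65% of all windows. The letters TAATCC, the core bound by OTX homeodomains, were found in 1 of the 11, a window of Otx2 itself, against 7.06% of all. The Kl stretch held none of the 3 motifs. The counts of windows are small, and a match of letters is a description and not a binding site.

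The comparison that the labels give is that of Adrb1-A187V;PS19 with PS19 mice, which the study made to ask how the receptor mutation changes cortical expression in tau mice. By the quasi-likelihood test of edgeR, none of the 8 choroid plexus genes tested reached an unadjusted p-value under 0.05, against 2.80% of all genes tested (1.42% in the direction higher in Adrb1-A187V;PS19), and none did by DESeq2 or limma-voom. After adjustment 0% of all genes passed. The log2 fold changes, higher in Adrb1-A187V;PS19 where positive, were 0.29 with a standard error of 1.02 for Ttr, 0.35 with 0.55 for Kl, 0.31 with 0.48 for Prlr and 0.42 with 0.78 for Folr1. They were 0.80 with a standard error of 0.38 for Clic6, 0.64 with 0.56 for Kcnj13, 1.20 with 0.59 for Otx2 and -0.53 with 0.67 for Aqp1. In mean CPM, Ttr had 127.4 ± 151.2 (SD, n = 4 mice) in PS19 and 154.8 ± 248.6 (SD, n = 4 mice) with the receptor mutation, and Kl 9.01 ± 5.19 and 11.4 ± 12.1, so that both genes varied more within a genotype than between the means. In each of the 9 genes the CPM of the genotypes overlapped; 2.02% of all genes tested did not. As the genes were chosen with these mice in view, nothing is read from the counts of calls.

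The direction of the difference turned on single mice and, for some genes, on the method. With all 8 mice, the log2 fold change was positive for 7 of the 8 genes and its median was 0.39, against 0.000459 over all genes tested. By limma-voom the value was negative for Ttr (-0.16), Folr1 (-0.45) and Aqp1 (-0.55), and the median was 0.11. Without m658 it was negative for 6 of the 8 and its median was -0.62, with values of -2.05 (standard error 0.87) for Ttr, -1.64 (0.64) for Aqp1 and -0.74 (0.36) for Kl. Ttr and Aqp1 then fell below an unadjusted p of 0.05, as did 2.60% of all genes, 1.38% in that direction. Without m668 it was positive for all 8 and its median was 0.90, and Clic6 and Otx2 passed the unadjusted threshold, with log2 fold changes of 1.03 and 1.53, where 3.44% of all genes did, 1.93% in that direction. With no filter beyond 1 count, Ttr, Kl, Clic6 and Otx2 passed the unadjusted threshold, as did 4.06% of all genes, and Clic6 was among the 0.196% that passed after adjustment. Their log2 fold changes stayed at 0.29, 0.35, 0.80 and 1.20, so that the p-values moved and the differences did not. As these genes were chosen with these mice in view, nothing is read from any of these calls.

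A list of 28 other choroid plexus genes was set beside these 9, of which the filter kept 22. The list was chosen with earlier results of these data known and Ttr was among the genes chosen for their spread, so the fit below is not independent of that choice. The same mice were often at the top, since m658 had the highest level in 19 of the 22, and the highest among the Adrb1-A187V;PS19 mice in 21, and m668 the highest among the PS19 mice in 14. Each gene was then fitted by edgeR with genotype and the log2 CPM of Ttr as terms, which gives a slope in log2 units per log2 unit of Ttr. The slope was positive in 21 of the 22, with a median of 0.14 against -0.00115 over all 17194 genes fitted. It passed an adjusted p-value of 0.05, over all genes fitted, in 5 of the 22, where 0.0523% of all genes passed, 0.0349% with a positive slope and 0.0174% with a negative one. The 6 genes with a positive slope were these 5 and Kl. Kl is among the 9 chosen genes, so its place here is a description. At the unadjusted threshold 14 of the 22 passed, against 9.30% of all genes. In the same fit, and as a description alone, the slopes of the 7 chosen genes other than Ttr and Cldn2 ran from 0.23 for Clic6 to 0.54 for Folr1, with a median of 0.36.

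Tmem72, a membrane protein of little-known function, followed Ttr most closely, with a slope of 1.08 (standard error 0.07, edgeR adjusted p = 8.32e-06). It had 0.0612, 0.283, 2.11 and 4.62 CPM in PS19 mice m677, m665, m659 and m668. In Adrb1-A187V;PS19 mice m660, m661, m671 and m658 it had 0.224, 0.287, 1.08 and 10.1 CPM. Within each genotype this is the order of Ttr apart from m660 and m661. In m677, m665, m660 and m661 it was counted 1, 6, 4 and 6 times, so the order of these mice is uncertain. F5, which encodes coagulation factor V, had a slope of 0.52 (standard error 0.05, edgeR adjusted p = 0.00170), with 4.83 CPM in m668, 10.5 in m658 and 1.10 to 3.73 in the other mice. Mfrp, a frizzled-related membrane protein, had a slope of 0.70 (standard error 0.10, edgeR adjusted p = 0.0258), with 116 counts in m658, 29 in m668, 33 in m659 and 3 to 17 in the others. It overlaps Rnf26, a gene of the other strand with 378 counts. Kcne2, a subunit of potassium channels, had a slope of 0.69 with a standard error of 0.12 and did not pass after adjustment (edgeR adjusted p = 0.0746).

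Among the 8 most abundant of the 22 genes, Enpp2 and Car12 passed. Enpp2, the secreted enzyme autotaxin, which mature oligodendrocytes also make, had 230.1, 269.8, 274.3 and 350.1 CPM in m677, m665, m659 and m668 and 234.4, 239.9, 255.9 and 463.5 CPM in m661, m660, m671 and m658. Its slope was 0.15 (standard error 0.02, edgeR adjusted p = 0.0173), and the levels of m668 and m658 stood above those of the other 6 mice. Car12, a membrane carbonic anhydrase, had a slope of 0.15 as well (standard error 0.02, edgeR adjusted p = 0.0466), with 24.9 CPM in m668 and 28.2 in m658, and a lower level in each of the other mice. The other 6 did not pass after adjustment. Their slopes were 0.19 for the monoamine transporter gene Slc29a4, 0.14 for the angiotensin-converting enzyme Ace, 0.10 for the collagen Col8a1, 0.06 for Igfbp2, 0.04 for Cab39l and -0.04 for the sulfate transporter Slc13a4. Slc13a4, which fibroblasts of the meninges also make, was highest in m660 and lowest in m671.

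**Figure D3:**
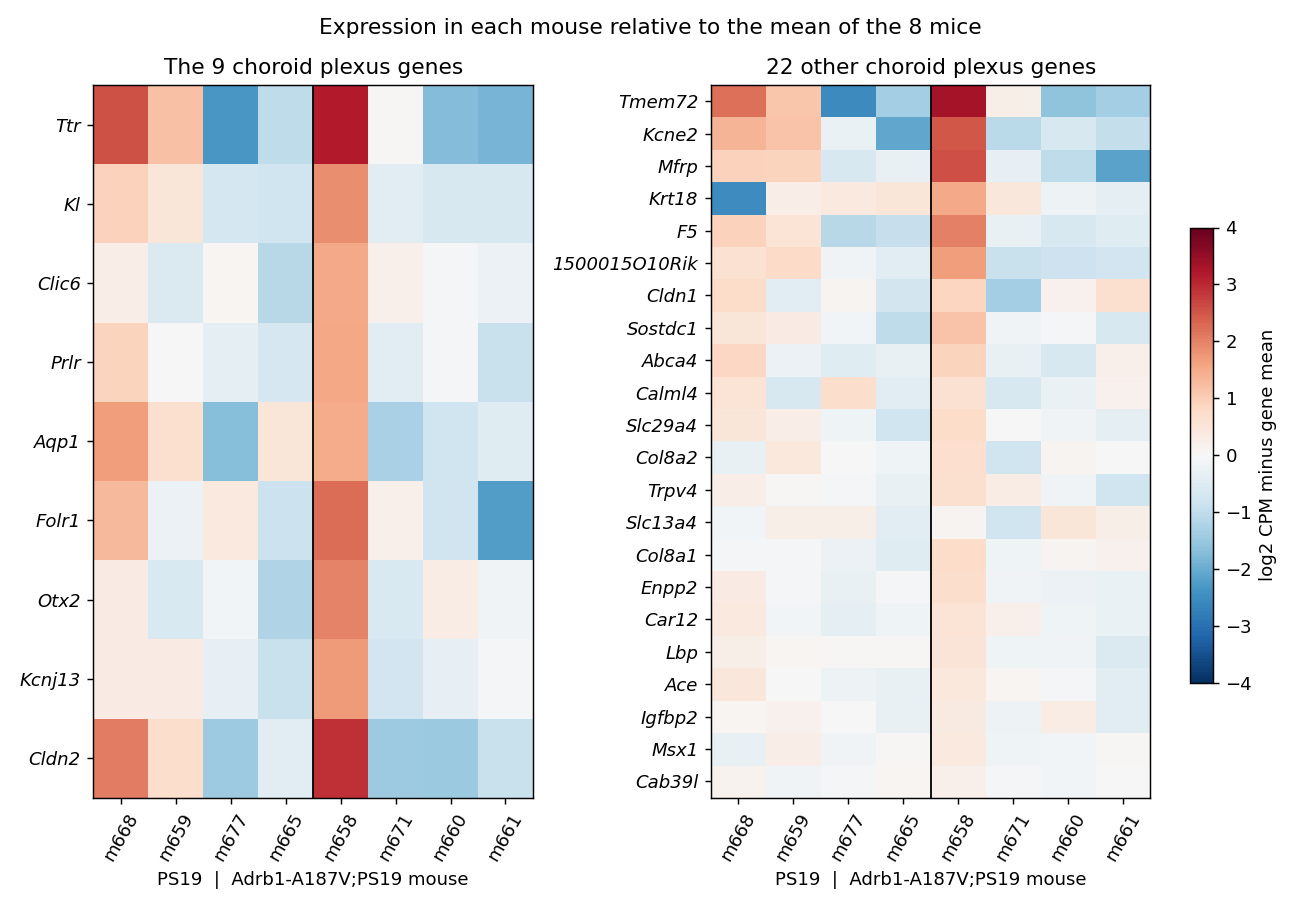
Deviation of log2 CPM from the mean of the 8 mice (color) for the 9 choroid plexus genes (left) and the 22 other choroid plexus genes that passed the filter (right), with PS19 mice left and Adrb1-A187V;PS19 mice right of the line. The column of m658 is the reddest in both panels, and that of m668 is red for Ttr, Cldn2, Tmem72 and Kcne2 but blue for Krt18, which had no count in that mouse.

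These calls depended on m658. Without it 1 of the 22 genes, Tmem72, passed after adjustment, as the only gene of the table (0.00572%), 9 passed the unadjusted threshold, against 8.12% of all genes, and 17 of the 22 slopes were positive. The number that passed was 2 of the 22 without m661, 3 without m668, m671 or m660, and 4 to 6 without any 1 of the other 3 mice, and without both m658 and m668 none of 19 passed after adjustment in edgeR and 4 passed unadjusted, where 3.95% of all genes did. Tmem72, Kcne2 and Calml4 then no longer passed the filter and were not tested. On the genes kept with all 8 mice, none of the 22 passed after adjustment without these 2 mice and 6 passed unadjusted, against 3.94% of all genes, and the slope of Tmem72 was 1.27 with a standard error of 0.19 (edgeR adjusted p = 0.964). Between the genotypes, 1 of the 22 other choroid plexus genes, Col8a1, had an unadjusted p-value under 0.05, near the 2.80% of all genes, with a log2 fold change of 0.46 and a standard error of 0.21, and none passed after adjustment.

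Markers of neighboring tissues were set beside this pattern in the same fit. Ependymal cells line the ventricles next to the choroid plexus. Their 9 markers summed to 17.2 CPM in m658 and 16.0 in m668, within the 15.2 to 28.5 CPM of the 8 mice, and 1 of the 8 fitted had a positive slope. The 12 markers of meninges and fibroblasts summed to 99.4 CPM in m658 and 90.4 in m668, within a range of 80.3 to 136.5, and 1 of 12 slopes was positive. Red blood cell genes were highest in m658, with 132.8 CPM, and next in PS19 mouse m677, with 131.1, where Ttr was lowest. Their range was 86.9 to 131.1 CPM in the PS19 and 81.8 to 132.8 CPM in the Adrb1-A187V;PS19 mice. All 5 of their slopes were positive, with a median of 0.04, and the part of blood in the result was not tested. No gene of these 3 lists passed after adjustment, and at the unadjusted threshold 1 ependymal, 1 meningeal and no red blood cell gene did. The ependymal gene, Ccdc153, had a slope of -0.19 and the meningeal gene, Slc6a13, of -0.10, both lower where Ttr was higher. No hippocampal, thalamic, medial habenular or endothelial marker passed after adjustment, and 2 of 8, 1 of 6, 1 of 4 and 1 of 4 passed unadjusted, against 9.30% of all genes. Each of those that passed unadjusted was lower where Ttr was higher. The slopes were -0.29 for C1ql2, -0.09 for Npnt, -0.10 for Ramp3, -0.18 for Chrnb3 and -0.07 for Tek.

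The 8 striatal markers all had positive slopes, with a median of 0.14, and all 8 had an unadjusted p-value under 0.05 although none passed after adjustment in edgeR. Their summed level ran from 943.5 to 1885 CPM in the PS19 mice, highest in m668, and from 973.6 to 2113 CPM in the Adrb1-A187V;PS19 mice, where m658 had 1765 CPM and m671, with 59.4 CPM of Ttr, had the most. The part of striatal tissue in the result was not tested. The 8 cortical excitatory neuron markers had a median slope of -0.02, 1 of them had a positive slope, and none passed after adjustment. Of other tissues that make some of the 9 genes, liver markers had few counts. Over all mice Apoa1 had 41, Apoc3 38 and Alb 3 counts, and Fgb had none. Among the pineal markers, Aanat had 87, Tph1 29 and Asmt 4 counts, and Crx and Gngt1 had no count in any mouse. Of the 5 retinal pigment epithelium markers, Rgr had no count, while Rpe65 had 433 counts and Pmel 100 over the 8 mice. The list summed to 3.80 to 4.58 CPM in the PS19 and 3.51 to 5.34 CPM in the Adrb1-A187V;PS19 mice, with 3.51 in m658 and 3.80 in m668, and neither of the 2 slopes fitted was positive. Pineal and liver markers summed to at most 1.46 and 1.29 CPM, and to 0.396 and 0.283 CPM in m658.

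**Figure D4:**
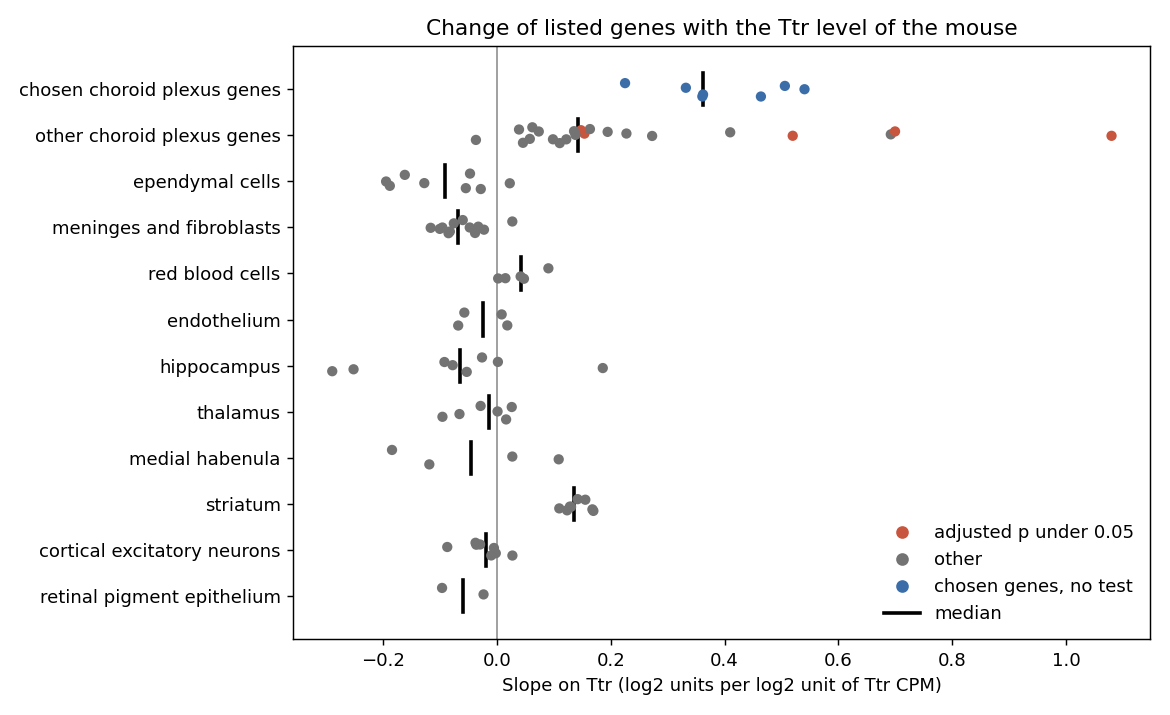
Slope of each listed gene on the log2 CPM of Ttr over the 8 mice (x, log2 units per log2 unit, genotype in the fit), by list (y), 1 point per gene with the list's median as a bar. The 5 points in red, of the other choroid plexus genes, had an adjusted p-value under 0.05; the 7 chosen genes in blue carry no test.

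Across the 17195 genes tested, the genes most like the 8 choroid plexus genes were found by Pearson's r with the mean of their centered log2 CPM over the 8 mice, among genes with a mean of at least 1 CPM and a slope of at least 0.5 log2 units per log2 unit of that mean. The rule left 16 genes, and the 6 with the highest r were F5 (0.96), Tmem72 (0.93), Kcne2 (0.91), Mfrp (0.91), Sostdc1 (0.90) and 1500015O10Rik (0.90), all of them from the list of other choroid plexus genes. Over the 6 mice other than m658 and m668 their r was between 0.72 and 0.86. The next 6, Drc7, Cyp26b1, Gm47283, Gm39043, Vipr2 and Cxcl10, are in none of the lists and had an r of 0.54 to 0.83. Of the genes tested other than the 8 themselves, 34 had an r over 0.9, 5 of which met both minimums, and 54 had an r below -0.9. This ranking is a description and not a test. The 8 genes were chosen because they varied widely and together in these mice, and the slope minimum keeps widely varying genes. The list of other choroid plexus genes was itself chosen with earlier results of these data known.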

How the data were processed

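Cortical RNA of 8 mice was sequenced, 1 library per mouse. The authors aligned the reads to GRCm38 with HISAT2 2.0.5, counted them per Ensembl gene with featureCounts 1.5.0-p3 and deposited raw counts; the annotation release and the strand and multiple-mapping settings are not given in the sources used here. The gene length column was used for levels per kilobase alone.

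The 9 genes, the lists and the alternatives were chosen with earlier results of these data known. Counts were filtered (filterByExpr) and TMM-normalized, and genotypes were compared with edgeR 4.0.16 (glmQLFTest, 2-sided, R 4.3.3), and p-values were adjusted over every tested gene by Benjamini-Hochberg. A second edgeR model held genotype and the log2 CPM of Ttr, without Ttr among the genes fitted. A standard error is the log2 fold change or slope divided by the square root of F. log2 CPM used a prior count of 2. Intervals are exact binomial.

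Named were the 9 genes, of the other choroid plexus genes the 8 most abundant, and the 12 genes most like the 9; other genes named were called by a test or chosen after their values were seen. Alternatives were DESeq2 1.42.0, limma-voom (limma 3.58.1), DESeq2's size factors, no filter beyond 1 count, other terms or predictors, a prior count of 0.5, library size alone, and each mouse left out; leaving out m658 and m668 together, with the filter applied anew or not, was added after seeing the data. The study used littermates as controls, but the sources do not tie a mouse to a litter or run, and p-values measure the spread between these mice.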

Additional observations from a re-analysis of the deposited data

Results flagged for a closer look

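Within a genotype, 1 mouse stood far from the other 3 in 14 of 64 groups of 4 values tested, over 30 choroid plexus genes that passed the filter and 2 mean levels. The 8 chosen genes were picked for their spread between these mice, so their values and the 2 mean levels are a description, and 14 of 64 is not set against chance. The 22 others gave 7 of 44, or 15.9%. Chance gives about 1 in 20, and 4.90% of the groups of all genes tested met the same criterion. The list of the 22 was itself chosen with earlier results of these data known. The groups share the mice and are not independent. In 13 of the 14 the mouse was m658, above the other Adrb1-A187V;PS19 mice. The gap to the next mouse, as a share of the range of the 4, was 0.915 for Ttr, 0.967 for Kl, 0.853 for Clic6, 0.86 for Kcnj13 and 0.872 for Aqp1. Among the other choroid plexus genes it was 0.906 for Enpp2, 0.947 for F5, 0.98 for 1500015O10Rik, 0.967 for Kcne2, 0.914 for Tmem72 and 0.901 for Mfrp. It was 0.846 for the mean centered log2 CPM of the 8 chosen genes and 0.918 for that of the 22 others. The 1 other case was Abca4 in the PS19 mice, a transporter of the ABC family, with 7.18 CPM in m668 and a gap of 0.873.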

How the results depend on the processing

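The number of chosen genes with an unadjusted p-value under 0.05 between genotypes was 0 of 8 in edgeR, against 2.80% of all genes. It was 0 of 9 with DESeq2 and 0 of 8 with limma-voom and with DESeq2's size factors. With no filter it was 4 of 9, against 4.06% of all genes. With 1 mouse left out it was 0 to 2 of 8 or 9. The share of all genes was 2.60% without m658 and 3.44% without m668. These genes were chosen with these mice in view, so nothing is read from these counts. For the other choroid plexus genes the number was 1 of 22, 1 of 28 with DESeq2 and 0 of 22 with limma-voom. It was 3 of 28 with no filter and 0 to 2 of 22 or 23 with 1 mouse left out. Without m658 and m668 it was 2 of 19. The median log2 fold change of 0.39 ran from -0.62 to 0.90 with 1 mouse left out and was -0.24 without both and 0.11 with limma-voom. Of the other choroid plexus genes, 5 of 22 followed Ttr. With DESeq2 10 of 28 did, and with no filter 11 of 28. With 1 mouse left out 1 to 7 did, of 22 or 23 tested. Without both mice 0 of 19 did, and 0 of 22 on the genes kept with all 8. With Folr1, a gene of far fewer counts, in place of Ttr, 0 passed in edgeR after adjustment and 14 of 22 before it, against 7.12% of all genes. The number of all genes following Ttr was 9, and 94 with DESeq2, 286 with no filter, 15 with no genotype term, 0 with Folr1, 1 to 18 with 1 mouse left out and 0 without both under either filter; the cause was not tested. The median standard deviation of 0.97 ran from 0.63 to 1.02 with 1 mouse left out and was 0.51 without both. The median r of 0.81 within genotypes ran from 0.53 to 0.915 and was 0.24 without both. Other scalings and the prior count moved neither by more than 0.05. No paired analysis was possible because nothing in the labels ties a mouse of 1 genotype to a mouse of the other, though littermates were used as controls. Counts under 20 per mouse, as in Cldn2, Otx2, Kcnj13, Folr1 and Tmem72, limit what low levels can show.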

Other observations

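In the fit on Ttr, 3 of the 17194 genes fitted (0.0174%) passed with lower levels where Ttr was higher. Opalin, a membrane protein of mature oligodendrocytes, had a slope of -0.17 (standard error 0.02, edgeR adjusted p = 0.0258). Satb1, a chromatin organizer of cortical interneurons, had a slope of -0.10 (standard error 0.02, edgeR adjusted p = 0.0466). Nrep had a slope of -0.17 (standard error 0.03, edgeR adjusted p = 0.0466). None of the 3 passed without m658, where only Tmem72 did. These genes were chosen after their values were seen.

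Cyp26b1, an enzyme that breaks down retinoic acid, was among the genes most like the 8 although it is on none of the lists. It had 5.38, 12.3, 18.9 and 20.3 CPM in PS19 mice m665, m677, m659 and m668 and 6.61, 11.5, 13.8 and 20.1 CPM in Adrb1-A187V;PS19 mice m661, m671, m660 and m658. Its r was 0.76 over the 8 mice and 0.83 over the 6 without m658 and m668. The same values were 0.96 and 0.86 for F5 and 0.93 and 0.82 for Tmem72. Gm47283, with 0.65 and 0.90, and Cxcl10, with 0.54 and 0.55, did not fall either without these 2 mice.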
